A study of Mus musculus with 54 samples.

Results

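Livers of mice homozygous for the error-prone allele of Mrps12 (Mrps12ep/ep, n = 3) were compared with livers of wild-type mice (Mrps12+/+, n = 3) over the transcriptome. Genes entered if they averaged 10 or more normalized counts across all 9 livers, which held for 15314 of the 54356 genes in the liver table. The lowest mean inside this limit was 10.0 and the highest mean outside it was 9.99 normalized counts. Hearts and livers of 3 genotypes were sequenced as 54 libraries, with each organ of a mouse split into 3 technical libraries. The other 3 livers came from mice homozygous for the hyper-accurate allele (Mrps12ha/ha) and entered the same fit. All mice were C57BL/6 males, 20 weeks old, that ate a high-fat diet (HFD) with 42% of its energy as fat. The mutants were bred from heterozygous parents, and the Mrps12+/+ mice were age- and litter-mate matched. RNA came from whole livers, so that fewer cells of a type and less RNA per cell cannot be told apart in any value here.

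MRPS12 is a protein of the small subunit of the mitochondrial ribosome and lies at the decoding site, where codon and anticodon are paired. The error-prone allele lowers and the hyper-accurate allele raises the accuracy with which this ribosome reads its messages. The liver is the main site of cholesterol synthesis, which is set by the transcription factor SREBP2, and it also disposes of nitrogen from amino acids, makes bile acids and clears foreign compounds through cytochrome P450 enzymes.

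The Mrps12+/+ livers held 61935754 to 67825945 reads on genes and the Mrps12ep/ep livers 64642570, 73408184 and 23805012 reads. In Mrps12ep/ep mouse 3, the shallowest of the 6, 1 read was worth 2.22 normalized counts. The Mrps12+/+ livers differed among themselves in ways that touch the results below. Mice 1 and 2 held RNA of skeletal muscle, with 35624 and 46713 normalized counts summed over 17 muscle genes, whereas mouse 3 held 93.0 and the Mrps12ep/ep livers 98.3 to 244. For Acta1, the actin of skeletal muscle fibres, the counts were 4553 and 6323 in these livers, 5.70 in Mrps12+/+ mouse 3 and 1.40 to 22.0 in Mrps12ep/ep mice. Mrps12+/+ mouse 3 stood apart in the acute phase genes, the plasma proteins that the liver makes in inflammation. Their sum over 22 genes was 6024048 normalized counts in this mouse, 1343451 and 1466158 in the other Mrps12+/+ mice and 1409257 to 1571202 in Mrps12ep/ep mice. The sum of 14 hepatocyte markers was 5915087 to 6679855 normalized counts in Mrps12+/+ and 7197086 to 7854712 in Mrps12ep/ep livers, without overlap. As a share of all normalized counts of each liver the groups did overlap, at 11.1% to 14.1% in Mrps12+/+ and 13.6% to 15.5% in Mrps12ep/ep livers. The defining markers of the labelled tissue were thus present in all 6. The sum of 9 adipocyte markers was 5310 to 10676 normalized counts in Mrps12+/+ and 3127 to 4403 in Mrps12ep/ep livers. Of these, Lep and Plin1 were at 0 reads in every Mrps12ep/ep liver and at 6.50 to 204 and 1.60 to 111 normalized counts in Mrps12+/+ livers, where the lowest Plin1 value was 2 reads, under the limit of 3. Adipoq was at 2.20 to 3.90 normalized counts in Mrps12ep/ep and at 2.40 to 118 in Mrps12+/+ livers. Mrps12+/+ mouse 3 had the highest adipocyte sum, of which Cidec, also counted as a lipid droplet gene, gave 7770 normalized counts. Yet this mouse was the lowest of its group in 6 of the 8 tested adipocyte markers (75.0%), compared with 34.5% of all tested genes. The part of these differences in the results was not tested. With 1 of the 6 mice left out in turn, the median log2 difference turned sign at least once in 18 of 45 gene lists, moved by over 1.5 times in 23 others and did neither in 4, those of cholesterol biosynthesis, the urea cycle and amino acid catabolism, hepatocytes and adipocytes. Values without single mice stand beside the lists below that they touch most.

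**Figure D1:**
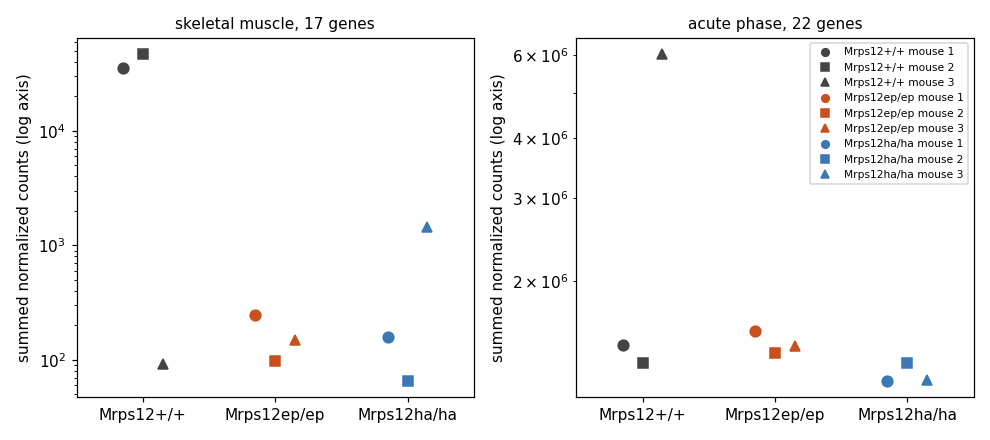
Summed normalized counts of 17 skeletal muscle genes (left) and 22 acute phase genes (right) in each liver, on log axes, with 1 point per mouse. Mrps12+/+ mice 1 and 2 lie at 35624 and 46713 for muscle, and Mrps12+/+ mouse 3 at 6024048 for the acute phase, each far from all 3 Mrps12ep/ep livers.

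Mrps12 itself (chr7:28739641-28741820, GRCm38) was measured at 1508, 1707 and 1737 normalized counts in Mrps12+/+ and at 1790, 1780 and 1698 in Mrps12ep/ep livers. The groups overlapped and the log2 difference was 0.09 ± 0.10 (SE, adjusted p = 0.773, limma). The alleles change amino acids of the protein, so the level of the transcript does not test the genotype labels.

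A single gene, Cyp2a22, passed the adjusted threshold as lower in Mrps12ep/ep livers, and none passed it as higher. Of the 15314 genes, 1 had an adjusted p under 0.05 (0.00653%). Without adjustment, 707 genes were higher (4.62%) and 784 lower (5.12%) in Mrps12ep/ep livers at p under 0.05. The 3 Mrps12ep/ep mice lay above all 3 Mrps12+/+ mice for 994 genes (6.49%) and below them for 961 genes (6.28%). The median log2 difference over all tested genes was -0.01.

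Cyp2a22 (chr7:26931631-26939384, GRCm38) encodes a cytochrome P450 of the family 2A. Cyp2a22 had 285, 518 and 1181 normalized counts in Mrps12+/+ livers and 2.40, 0 and 0 in Mrps12ep/ep livers. All of the latter came from 3 reads in mouse 1. The log2 difference was -8.54 ± 0.71 (SE, adjusted p = 0.00842, limma), a size that depends on the pseudocount. The call was lost without Mrps12+/+ mouse 2, with a pseudocount of 0.1, with a mean of at least 50, with these genotypes alone in the fit and in limma-voom on the reads. From the reads, Cyp2a22 was 664 times as abundant in Mrps12+/+ livers, with a 95% interval of 227 to 3224 that covers counting error only. Mrps12ha/ha livers were as low, with 0, 0.70 and 1 normalized counts. The gene lies within 5 Mb of Mrps12 on chromosome 7, and its neighbours Cyp2a12 and Cyp2a5 were higher in Mrps12ep/ep livers. Whether this position has a part in the low Cyp2a22 values of both mutants was not tested. Cyp2a12 was at 21414, 22392 and 16568 normalized counts in Mrps12+/+ and at 33564, 32432 and 35591 in Mrps12ep/ep livers (log2 difference 0.76 ± 0.14, SE, adjusted p = 0.214, limma). Cyp2a5, the coumarin hydroxylase, was at 20144, 19055 and 9317 against 33919, 38595 and 47736 (log2 difference 1.38 ± 0.27, SE, adjusted p = 0.269, limma). The Cyp2a genes are close copies of each other, so that reads may have been split between them, which was not tested.

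Most genes of cholesterol biosynthesis had lower values in Mrps12ep/ep livers, although none passed the adjusted threshold. Of 20 genes, all had a log2 difference below 0, with a median of -1.48 against -0.01 over all tested genes. In 19 of the 20 the Mrps12ep/ep mice all lay below the Mrps12+/+ mice, against 6.28% of all genes, and the same number had an unadjusted p under 0.05, against 5.12%. The lowest adjusted p of the list, that of Idi1, was 0.0659 (limma). The list was chosen with earlier results of these data known, so its count is a description.

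The RefSeq promoter windows of Idi1, the isomerase that follows the mevalonate steps, of Nsdhl, a sterol dehydrogenase that acts late in the pathway, and of Hmgcs1, which makes HMG-CoA at its start, are shown because SREBP2 acts on such promoters together with the CCAAT-binding factor NF-Y. Each runs from 250 bases before to 50 after the start of the gene, and capitals mark the letters CCAAT and TCACNCCAC, a form of the sterol response element, on either strand.
Idi1, GRCm38.p6, chr13:8885356-8885655, plus strand: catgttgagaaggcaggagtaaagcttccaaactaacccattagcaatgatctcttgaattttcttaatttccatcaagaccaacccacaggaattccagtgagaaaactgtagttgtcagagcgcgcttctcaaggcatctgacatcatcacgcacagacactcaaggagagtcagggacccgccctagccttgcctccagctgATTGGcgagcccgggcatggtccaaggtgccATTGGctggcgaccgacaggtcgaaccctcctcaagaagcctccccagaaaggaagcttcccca
Nsdhl, GRCm38.p6, chrX:72918271-72918570, plus strand: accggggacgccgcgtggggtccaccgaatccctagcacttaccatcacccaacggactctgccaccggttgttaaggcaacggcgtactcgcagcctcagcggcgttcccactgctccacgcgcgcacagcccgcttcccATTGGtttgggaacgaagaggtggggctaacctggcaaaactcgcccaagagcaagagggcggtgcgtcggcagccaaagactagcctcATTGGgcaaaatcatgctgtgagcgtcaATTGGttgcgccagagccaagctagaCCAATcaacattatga
Hmgcs1, GRCm38.p6, chr13:119690101-119690400, plus strand: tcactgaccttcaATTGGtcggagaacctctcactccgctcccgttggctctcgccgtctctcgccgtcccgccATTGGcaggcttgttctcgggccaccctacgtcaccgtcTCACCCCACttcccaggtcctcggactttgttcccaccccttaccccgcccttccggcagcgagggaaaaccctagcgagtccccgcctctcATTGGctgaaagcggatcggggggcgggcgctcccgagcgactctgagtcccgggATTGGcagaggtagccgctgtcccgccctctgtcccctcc
Of 20 list genes, 15 had a window in the RefSeq table, with 18 windows in all. CCAAT was found in 14 of these windows (77.8%) and in 37.4% of all 32851 windows. Among the former was the window of Ebp, whose log2 difference was -0.08 with overlapping groups. TCACNCCAC was found in 1 window, that of Hmgcs1, and in 1.24% of all windows. The windows of Idi1, Nsdhl and Hmgcs1 held CCAAT 2, 4 and 4 times. A match is a description of the letters and not of binding, and a part of SREBP2 or NF-Y in the lower values was not tested.

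At the start of the pathway Hmgcs1 was at 15579, 25434 and 41326 normalized counts in Mrps12+/+ livers and at 5928, 7664 and 6632 in Mrps12ep/ep livers (log2 difference -1.92 ± 0.33, SE, adjusted p = 0.178, limma). The highest Mrps12ep/ep mouse lay below the lowest Mrps12+/+ mouse. Idi1 was at 11105, 13110 and 21914 normalized counts in Mrps12+/+ and at 2096, 1837 and 2366 in Mrps12ep/ep livers, 7.05-fold lower (log2 difference -2.82 ± 0.32, SE). Mvk, Pmvk, Mvd and Fdps, which carry mevalonate to farnesyl diphosphate, had log2 differences of -1.63, -1.14, -1.78 and -1.96.

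The squalene epoxidase Sqle, the first oxygen-using step, had the largest difference of the list. Sqle was at 2470, 2958 and 9253 normalized counts in Mrps12+/+ and at 92.5, 110 and 204 in Mrps12ep/ep livers, 31.7-fold lower (log2 difference -4.99 ± 0.75, SE, adjusted p = 0.11, limma). All 3 Mrps12+/+ mice lay far above the highest Mrps12ep/ep mouse. Cyp51, the lanosterol demethylase, was at 6903, 9264 and 14844 against 1796, 2136 and 2180 (log2 difference -2.28 ± 0.29, SE, adjusted p = 0.0904, limma). Nsdhl was at 4229, 5068 and 8306 against 1141, 1461 and 1356, with a log2 difference of -2.10 ± 0.28 (SE, adjusted p = 0.0991, limma). Msmo1, a sterol C4 methyl oxidase, was at 7767, 11326 and 18272 against 2688, 2337 and 3531 (log2 difference -2.06 ± 0.30, SE, adjusted p = 0.11, limma). Tm7sf2, the reductase that follows Cyp51, had a log2 difference of -1.04, and Hsd17b7, Dhcr7 and Sc5d had -1.57, -1.40 and -0.46. Ebp, the sterol isomerase, was the exception, at 10412, 11236 and 10587 normalized counts in Mrps12+/+ and 10080, 9480 and 11017 in Mrps12ep/ep livers, with overlapping groups.

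**Figure D2:**
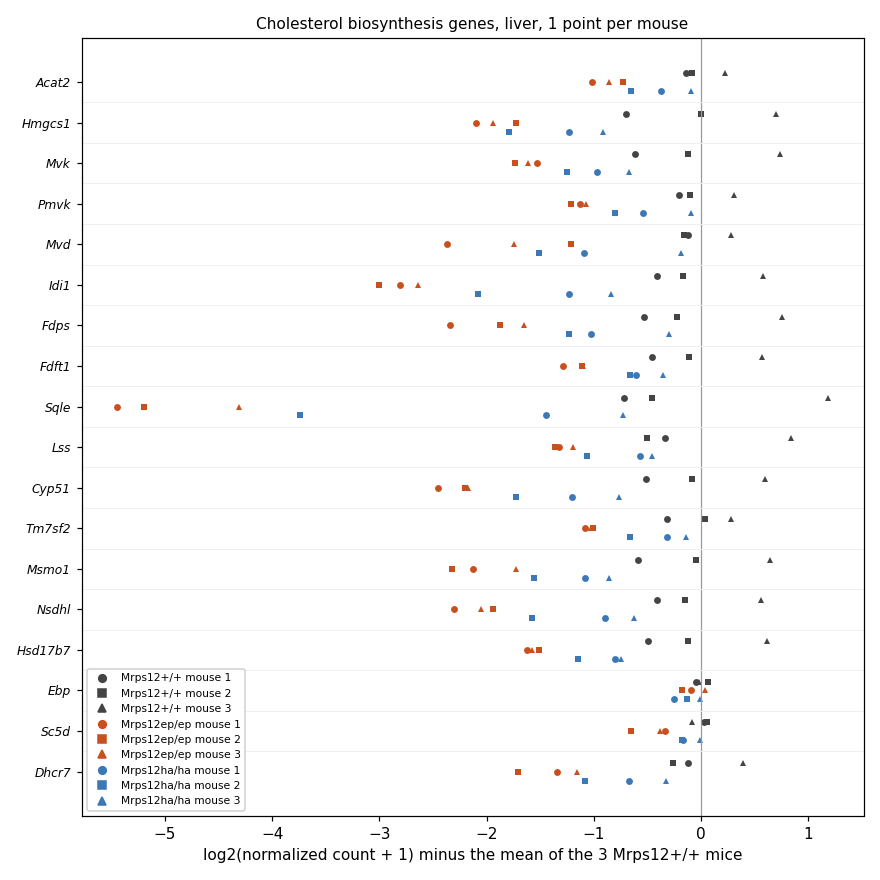
Log2(normalized count + 1) of 18 of the 20 cholesterol biosynthesis genes in each liver, less the mean of the 3 Mrps12+/+ mice, in pathway order from top to bottom, with 1 point per mouse. Mrps12ep/ep mice lie left of all Mrps12+/+ mice in 17 of these genes, Sqle is farthest left and Ebp overlaps.

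Mrps12+/+ mouse 3, the one with high acute phase genes, had the highest value of its group in 17 of these 20 genes (85.0%), compared with 35.6% of all tested genes. Without it the median log2 difference of the list was -1.23, and 19 of the 20 genes still had an unadjusted p under 0.05. Over all 15314 genes 603 were lower at that p in this setting. With Mrps12+/+ mouse 3 left out 68 genes passed the adjusted threshold (0.444%), 7 of them cholesterol genes and 15 of them genes of the skeletal muscle list. With Mrps12+/+ mouse 1 left out 26 genes passed (0.170%), 9 of them cholesterol genes. In total 9 genes passed in both cases. With Mrps12+/+ mouse 2 or any Mrps12ep/ep mouse left out no cholesterol gene passed in limma, and 19 had an unadjusted p under 0.05 each time. In these settings 542 to 835 of all 15314 genes were lower at that p.

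The genes that sense and take up sterols were split. Of 14, 6 were lower without overlap and 1 higher, against 6.28% and 6.49% of all genes, and the median log2 difference was -0.07. It was 0.00 without Mrps12ep/ep mouse 2, and 3 to 6 genes were lower at an unadjusted p under 0.05 with 1 mouse left out. In these settings 542 to 1277 of all 15314 genes were lower at that p. Stard4, which carries cholesterol in the cytosol, was at 3360, 4131 and 3744 normalized counts in Mrps12+/+ and at 2414, 2390 and 2821 in Mrps12ep/ep livers (log2 difference -0.56 ± 0.12, SE, adjusted p = 0.299, limma). Tmem97, a sterol-regulated membrane protein, and Npc2, which carries cholesterol in lysosomes, had log2 differences of -0.82 and -0.29. Srebf2, which encodes SREBP2, was at 2911, 2664 and 4632 against 1558, 2460 and 2211 normalized counts. Insig1, an SREBP2 target that holds SREBP2 in the endoplasmic reticulum, did not share this direction, at 18917, 11729 and 12897 against 20005, 15256 and 17791 with overlapping groups.

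A pair of sterol export genes lay on the other side. Abcg5 and Abcg8 form the transporter that moves cholesterol into bile and are targets of the sterol receptor LXR. Abcg5 was at 3397, 3253 and 2258 normalized counts in Mrps12+/+ and at 16689, 4605 and 8234 in Mrps12ep/ep livers (log2 difference 1.55 ± 0.38, SE, adjusted p = 0.348, limma). Abcg8 was at 4683, 4859 and 3277 against 19675, 5971 and 10269. Both were highest in Mrps12ep/ep mouse 1, and mouse 2 lay just above the Mrps12+/+ range. Of the 12 genes of sterol efflux and LXR targets 4 were higher without overlap, against 6.49% of all genes, and none lower, and the median log2 difference was 0.14. The exporters Abca1 and Abcg1 overlapped, with log2 differences of 0.04 and 0.15, and Nceh1, a cholesterol ester hydrolase, had -1.20. Among 19 bile acid genes 5 were higher without overlap, against 6.49% of all genes, and none lower (median 0.13). Mrps12+/+ mouse 3 was the lowest of its group in 13 of them (68.4%), and without it the median was 0.08. Nr0b2, the repressor SHP that bile acids induce, was at 2301, 2099 and 813 against 3000, 5589 and 3058, and Abcb11, the bile salt export pump, at 18733, 19409 and 8286 against 25816, 28755 and 21555. Cyp7a1, the rate-limiting enzyme of bile acid synthesis, was at 4492, 2875 and 1594 normalized counts in Mrps12+/+ and at 880, 473 and 2630 in Mrps12ep/ep livers, where mouse 3 fell within the Mrps12+/+ range.

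Fatty acid synthesis did not follow cholesterol synthesis. Of 22 genes of fatty acid and triglyceride synthesis 4 were higher without overlap and 2 lower, against 6.49% and 6.28% of all genes, with a median log2 difference of 0.29. Mrps12+/+ mouse 3 was the lowest of its group in 16 of them (72.7%), and without it the median was 0.10. Srebf1, which encodes the fatty acid regulator SREBP1, was at 10562, 6904 and 6227 normalized counts in Mrps12+/+ and at 25508, 13389 and 15984 in Mrps12ep/ep livers (log2 difference 1.20 ± 0.28, SE, adjusted p = 0.334, limma). Mlxipl, the glucose-responsive factor ChREBP, was at 14210, 14024 and 13179 against 17624, 20334 and 23107, and Dgat2, which completes triglycerides, at 17962, 18949 and 17523 against 20665, 24227 and 25268. Fasn, the fatty acid synthase, overlapped between the groups. Of 20 lipid droplet genes 17 had a log2 difference below 0 (median -0.42), and 2 were lower without overlap, against 6.28% of all genes. Plin2, the main droplet coat protein of hepatocytes, ranged from 21202 to 78515 normalized counts in Mrps12+/+ and from 18854 to 34874 in Mrps12ep/ep livers. Of 30 genes of fatty acid oxidation and ketone bodies 25 lay below 0 (median -0.23), and 1 was lower at an unadjusted p under 0.05, against 5.12% of all genes. This was Hadhb, a subunit of the trifunctional protein, with a log2 difference of -0.38. The droplet list had 15 lower genes and the oxidation list 14 at an unadjusted p under 0.05 without Mrps12+/+ mouse 1. Over all 15314 genes 1277 were lower at that p in this setting. Neither list had any such gene without Mrps12+/+ mouse 3 in limma, where 603 of all genes were lower and 391 higher. The medians were -0.68 and -0.38 in the first case and -0.20 and -0.10 in the second. Pdk4, which restrains pyruvate oxidation in fasting, was at 944, 1920 and 2307 against 372, 822 and 459 without overlap. It was 1 of 25 genes of insulin and glucose metabolism, whose median was 0.20, or 0.09 without Mrps12+/+ mouse 3.

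Genes of the urea cycle and of amino acid breakdown were mostly higher in Mrps12ep/ep livers. Of 41 genes 36 had a log2 difference above 0 (median 0.39), 12 were higher without overlap, against 6.49% of all genes, and 17 had an unadjusted p under 0.05 in that direction, against 4.62%. None was lower by either measure and none passed the adjusted threshold. Ass1, the argininosuccinate synthase of the urea cycle, was at 175189, 113530 and 54651 normalized counts in Mrps12+/+ and at 252874, 177713 and 253630 in Mrps12ep/ep livers (log2 difference 1.13 ± 0.38, SE, adjusted p = 0.454, limma). Hal, which breaks down histidine, was at 14253, 7078 and 1852 against 23546, 15233 and 18543 (log2 difference 1.72 ± 0.59, SE, adjusted p = 0.456, limma). In both genes the highest Mrps12+/+ mouse, mouse 1, lay just below the lowest Mrps12ep/ep mouse. Gpt, the alanine transaminase, was at 10587, 12385 and 8035 against 14570, 14728 and 14730, and Sardh, which oxidizes sarcosine, at 29281, 32558 and 17948 against 41548, 40837 and 38241.

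Cps1, the first enzyme of the urea cycle, overlapped between the groups, with 37960 to 143050 against 106381 to 164770 normalized counts. Mrps12+/+ mouse 3 was the lowest of its group in 31 of the 41 genes (75.6%), compared with 34.5% of all tested genes. Without this mouse the median was 0.29 and 12 genes were higher at an unadjusted p under 0.05. Without Mrps12+/+ mouse 1 or 2 there were 25 and 19 such genes, and without Mrps12ep/ep mouse 1, 2 or 3 there were 10, 21 and 8. The count over all 15314 genes moved too. It was 391 without Mrps12+/+ mouse 3, 1202 and 877 without mouse 1 or 2, and 685, 569 and 466 without Mrps12ep/ep mouse 1, 2 or 3. Periportal genes, those of the hepatocytes near the portal vein, include several of these enzymes. Of 15, 13 lay above 0 (median 0.61) and 6 were higher without overlap, against 6.49% of all genes. Mrps12+/+ mouse 3 was the lowest of its group in 13 of the 15 (86.7%), and without it the median was 0.36. The median of the 15 pericentral genes, those near the central vein, was 0.04.

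**Figure D3:**
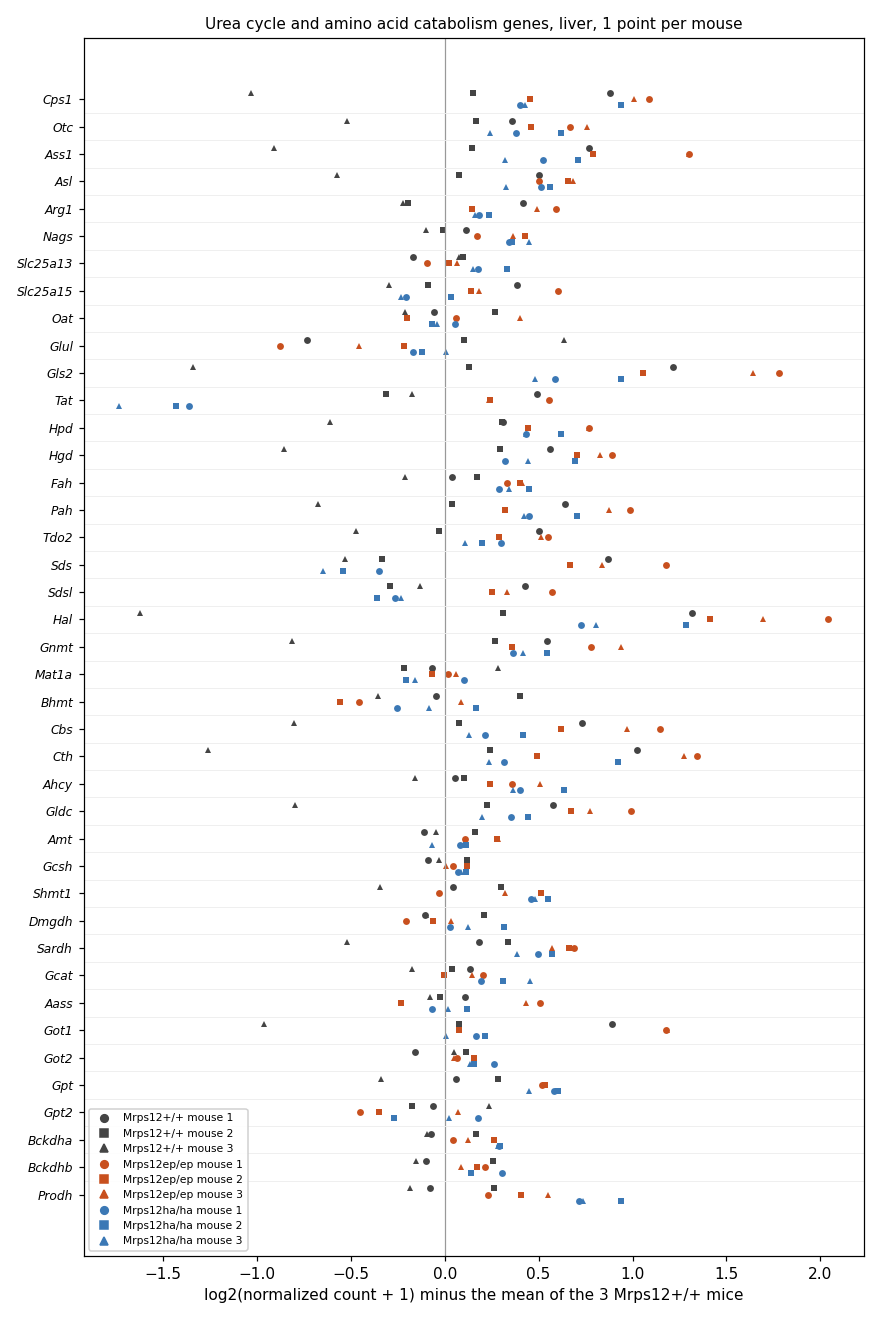
Log2(normalized count + 1) of the 41 urea cycle and amino acid catabolism genes in each liver, less the mean of the 3 Mrps12+/+ mice, with 1 point per mouse. Mrps12ep/ep mice lie mostly to the right of 0, and Mrps12+/+ mouse 3 is the lowest of its group in 31 genes.

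Many enzymes that clear foreign compounds had higher values in Mrps12ep/ep livers. Of 59 genes of cytochrome P450 families 1 to 4 that were tested, 10 were higher without overlap and 3 lower, against 6.49% and 6.28% of all genes, and 15 had an unadjusted p under 0.05 in the higher direction, against 4.62% (median 0.31). Cyp2c29 was at 28544, 29006 and 12510 normalized counts in Mrps12+/+ and at 53853, 54044 and 62564 in Mrps12ep/ep livers (log2 difference 1.38 ± 0.30, SE, adjusted p = 0.299, limma). Cyp3a11, the main inducible CYP3A of mouse liver, was at 28813, 30579 and 39713 against 46884, 59419 and 60999. Cyp4a12a, a fatty acid hydroxylase that is higher in males, ran the other way, at 13928, 14195 and 19788 against 8651, 7124 and 8243. Of 20 glutathione S-transferases 5 were higher without overlap, against 6.49% of all genes (median 0.29). Gsta4, which conjugates the lipid peroxidation product hydroxynonenal, was at 2144, 1438 and 1158 against 3209, 3114 and 3038 (log2 difference 1.03 ± 0.21, SE, adjusted p = 0.277, limma). Without Mrps12+/+ mouse 3 the medians of the P450 and transferase lists were 0.12 and 0.15.

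Nuclear genes for mitochondrial proteins lay close to 0. The median log2 difference was 0.10 over 36 complex I subunits, 0.05 over 42 subunits of complexes II to V, 0.05 over 78 mitochondrial ribosomal proteins, 0.01 over 38 genes of mitochondrial translation and 0.01 over 16 chaperones and proteases. These medians turned sign without 1 mouse, for complex I to -0.01 without Mrps12ep/ep mouse 2. Of the complex I subunits none had an unadjusted p under 0.05 in limma. Of the 78 ribosomal proteins 3 were higher and none lower at that p, against 4.62% and 5.12% of all genes. The authors left out transcripts of the mitochondrial genome, so these were not analysed here. The 29 tested genes of the integrated stress response, which answers to mitochondrial faults through ATF4, had a median of -0.17, which was 0.01 without Mrps12+/+ mouse 3. Atf4 was at 6125, 5411 and 6149 normalized counts in Mrps12+/+ and at 5511, 5633 and 4270 in Mrps12ep/ep livers, and Fgf21, a hormone the pathway induces, at 376, 776 and 881 against 364, 693 and 273. Both overlapped. Ppp1r15a, which ends the response, was lower without overlap at 1579, 1281 and 1396 against 390, 1076 and 999. Atf5, a factor of the same response, was higher without overlap at 21746, 21480 and 18640 against 21781, 28248 and 26152.

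Acute phase and interferon-stimulated genes had medians below 0 that came near or past 0 without 1 of the Mrps12+/+ mice. All 22 acute phase genes lay below 0, with a median of -0.61 that was 0.06 without Mrps12+/+ mouse 3. Of 26 interferon-stimulated genes 24 lay below 0 (median -0.43), 3 of them without overlap, against 6.28% of all genes, and the median was -0.04 without Mrps12+/+ mouse 1. Usp18, which dampens the interferon receptor, was at 776, 569 and 1048 against 445, 431 and 488 normalized counts. Of 17 immediate early genes 6 were lower without overlap and 1 higher, against 6.28% and 6.49% of all genes. Their median was -0.56, or -0.44 without Mrps12ep/ep mouse 2 and -0.94 without Mrps12+/+ mouse 2. Jun was at 2258, 2946 and 5301 against 1578, 1646 and 1565, and Fos at 314, 162 and 272 against 147, 127 and 124, so that for both the Mrps12ep/ep mice were close together below the Mrps12+/+ range. Among 18 stellate cell and collagen genes 3 were lower without overlap, against 6.28% of all genes (median -0.37, or -0.11 without Mrps12ep/ep mouse 2), all collagens, with Col1a1 at 1187, 763 and 1305 against 495, 533 and 732.

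**Figure D4:**
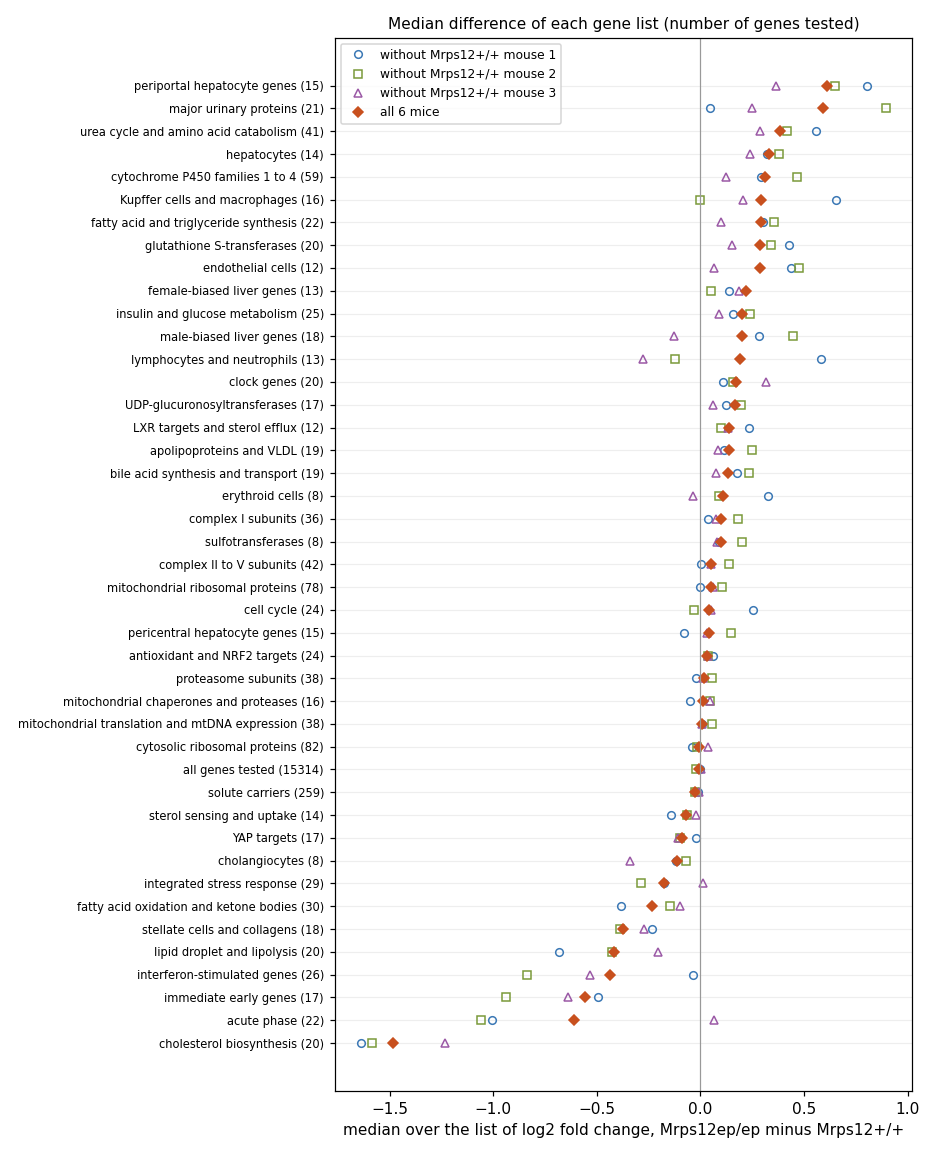
Median log2 difference between Mrps12ep/ep and Mrps12+/+ livers for 42 gene lists (skeletal muscle, adipocyte and pancreatic acinar markers not drawn) and for all tested genes (number tested in parentheses), with all 6 mice (filled) and without each Mrps12+/+ mouse (open). Among the lists drawn cholesterol biosynthesis lies lowest at -1.48 and lies below -1.2 without each Mrps12+/+ mouse, whereas the acute phase list moves to 0.06 without mouse 3.

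The genes with the smallest p among those without overlap and with a mean of at least 50 included several outside these pathways. Among the lower ones, Fam126a, which encodes a protein needed to place a lipid kinase at the plasma membrane, was at 619, 712 and 925 normalized counts in Mrps12+/+ and at 242, 267 and 246 in Mrps12ep/ep livers (log2 difference -1.56 ± 0.22, SE, adjusted p = 0.11, limma). Smyd1, a methyltransferase best known from muscle, was at 362, 391 and 461 against 173, 154 and 211. Srp54a, a subunit of the signal recognition particle with near-identical copies in the mouse genome, was at 4175, 3912 and 4152 against 2897, 2589 and 2819. Scn4b, a sodium channel subunit, was at 113, 288 and 38.3 against 3.90, 0.70 and 2.20, and its high values were in the livers that held muscle RNA.

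Among the higher ones, Spry4, a feedback inhibitor of growth factor signalling, was at 380, 454 and 299 normalized counts in Mrps12+/+ and at 882, 932 and 1147 in Mrps12ep/ep livers (log2 difference 1.39 ± 0.23, SE, adjusted p = 0.151, limma). Hsd11b1, which activates glucocorticoids, was at 20062, 17989 and 14899 against 25867, 30010 and 28154. Swt1, an RNA endonuclease, was at 649, 547 and 533 against 1211, 953 and 1179, and the noncoding 1700028E10Rik at 395, 282 and 289 against 853, 536 and 704. The others were Fam198a, Zfp395, Ccdc141 and Fndc4, with log2 differences of 1.88, 0.72, 0.72 and 0.50. For each gene named here without overlap the exact two-sided permutation test gave p = 0.1, the smallest that 3 mice against 3 allow. Any gene without overlap must give this value, so it adds nothing to the lack of overlap.

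Mrps12ep/ep livers were then set against Mrps12ha/ha livers in the same fit, which shows where the error-prone allele differed from the other mutant. A single gene passed, Gm10524 (0.00653%), a transcript of no assigned class, and 681 genes were higher (4.45%) and 639 lower (4.17%) at an unadjusted p under 0.05. Gm10524 was at 2522, 3134 and 2171 normalized counts in Mrps12ep/ep, 521, 695 and 489 in Mrps12ha/ha and 1545, 1841 and 1422 in Mrps12+/+ livers (log2 difference between the mutants 2.20 ± 0.18, SE, adjusted p = 0.00623, limma). The call was lost without Mrps12ep/ep mouse 1 (adjusted p = 0.0732, limma) and without Mrps12ha/ha mouse 3 (adjusted p = 0.0587, limma). Of the 20 cholesterol genes 14 were lower in Mrps12ep/ep than in Mrps12ha/ha livers at an unadjusted p under 0.05 and none higher, with a median of -0.67. Sqle was at 1495, 304 and 2454 normalized counts in Mrps12ha/ha livers, above all 3 Mrps12ep/ep mice (log2 difference -3.01, adjusted p = 0.417, limma), and Idi1 at 6248, 3473 and 8215 (log2 difference -1.43, adjusted p = 0.417, limma). For both genes the Mrps12ha/ha mice in turn lay below all 3 Mrps12+/+ mice, with log2 differences of -1.97 and -1.39. For Hmgcs1, Cyp51 and Nsdhl the difference of Mrps12ha/ha from Mrps12+/+ was -1.31, -1.23 and -1.03, and for Sc5d and Ebp -0.12 and -0.13. Lower values in this pathway were thus in part seen in both mutants, but both differences rest on the same 3 Mrps12+/+ livers. Of these livers, that of mouse 3 was the highest in 17 of the 20 genes. Swt1 and Gsta4 were higher in Mrps12ep/ep than in Mrps12ha/ha livers by 0.86 and 0.81 on the log2 scale. Slc27a1, a fatty acid transporter, was lower in Mrps12ep/ep livers than in both other groups, at 240, 335 and 262 normalized counts against 387, 587 and 478 in Mrps12+/+ and 609, 492 and 479 in Mrps12ha/ha. Tat, the tyrosine transaminase, was at 231094, 185338 and 184606 in Mrps12ep/ep and at 60991, 58176 and 47198 in Mrps12ha/ha livers (adjusted p = 0.0706, limma). By contrast Cyp2a22, Cyp2a12, Hsd11b1 and Srp54a had log2 differences between the mutants of 0.00, -0.05, 0.00 and 0.05. Those of Fam126a, Spry4 and Cyp2c29 were -0.23, -0.31 and 0.15, while Mrps12ha/ha differed from Mrps12+/+ livers by -1.33, 1.70 and 1.23.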

How the data were processed

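Liver RNA of 9 mice was measured by RNA-seq. Per the labels and the study's methods the authors trimmed reads (Trim Galore 0.4.1, cutadapt 1.18), merged libraries (taken to be the technical ones of 1 mouse), ran Salmon 1.1.0 against GENCODE vM21 (GRCm38.p6), using strand, for gene abundances and deposited gene counts divided by DESeq2 size factors, with 1 column per mouse. These deposited values, which the authors scaled by size factors, are treated as a score and called normalized counts. In every column all low values were whole multiples of a step, within 0.05, which gave the reads.

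A pseudocount of 1 was added before taking log2, and limma 3.58.1 (lmFit, eBayes with trend, R 4.3.3) was run on all 9 livers, without covariates, for genes with a mean of at least 10. Benjamini-Hochberg adjustment covered 15314 genes, with a threshold of 0.05. The code was tested on simulated data. Figures and tables used Python 3.11.15. Intervals and the limit of 3 reads cover counting error only.

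Named are Mrps12, genes past the threshold, the 10 higher and 10 lower genes with the smallest p among those with a mean of at least 50 and no overlap, and members of 45 lists, chosen as examples after their values were seen. A part of the rule that needed edgeR was not applied, since edgeR and DESeq2 were not run on these scaled values. The groups and lists were chosen with earlier results of these data known. The authors' tables of fold changes and p-values of their own comparisons, and the hearts, were not used. Alternatives were other pseudocounts, filters, normalizations, fits and leaving out mice. The labels do not say whether the mice of a group shared litters, and p-values measure the spread between these mice. Some genes are counted within their lists but not reported here by name.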

Additional observations from a re-analysis of the deposited data

Results flagged for a closer look

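The effects of the 2 alleles differed for Gm10524 by a test of the difference itself. The log2 difference between Mrps12ep/ep and Mrps12ha/ha livers was 2.20 (adjusted p = 0.00623, limma), with Mrps12ep/ep mice above and Mrps12ha/ha mice below all 3 Mrps12+/+ mice. The call was lost without Mrps12ep/ep mouse 1 (adjusted p = 0.0732, limma) or Mrps12ha/ha mouse 3 (adjusted p = 0.0587, limma), and the adjusted p was 0.000357 to 0.0732 over the alternatives. Both differences rest on the same Mrps12+/+ mice. Groups of 3 mice were too small for a test of outlying mice.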

How the results depend on the processing

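For Mrps12ep/ep against Mrps12+/+ livers the count of 1 gene was unchanged with a pseudocount of 8, quantile normalization, re-centring, robust eBayes and array weights. In limma it was 0 with a pseudocount of 0.1, 0 with a mean of at least 50 and 0 with only these genotypes in the fit, where 1471, 1253 and 1063 genes had an unadjusted p under 0.05, and 2 without a filter. Leaving out 1 mouse gave 1 to 68 genes, with the highest counts without Mrps12+/+ mouse 3 (68) and mouse 1 (26), and the gene that passed without Mrps12+/+ mouse 2 was Zbp1 in place of Cyp2a22. Against Mrps12ha/ha the count of 1 was 4 with robust eBayes, 13 with array weights and 0 to 11 with 1 mouse left out. The latter was 0 without Mrps12ep/ep mouse 1 (873 genes at an unadjusted p under 0.05) or Mrps12ha/ha mouse 3 (803 genes).

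Chosen after seeing the data were limma-voom on the reads, which gave 0 genes (1421 at an unadjusted p under 0.05) and 1 for the comparisons in this order, and leaving out Mrps12+/+ mice 1 and 2 together, which gave 1151 and 18 genes. In the latter the remaining mouse, that with the high acute phase, is assumed to vary like the other groups, the cholesterol median was -2.10, and the log2 differences of Cyp8b1, Myh4 and Adipoq reversed to 0.30, 0.49 and 0.12.

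With the replicate block 9 genes passed against Mrps12+/+ (Cyp2a22, Cntrl and 7 cholesterol genes) and 6 against Mrps12ha/ha, and limma-voom with the replicate block gave 6 and 5. Deviations of same-numbered Mrps12+/+ and Mrps12ep/ep mice correlated at 0.16, 0.13 and -0.07, so the numbers were not taken as a pairing. The planned fits with edgeR (TMM, RLE and with the block) and DESeq2 were not run on scaled values. In 1938 of 2049 recomputed differences of named genes direction and call were kept. The cause of the other changes was not tested. At the shallowest liver 3 reads equal 7.14 normalized counts, which limits genes near the filter.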

Other observations

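Several other lists were measured in the comparison of Mrps12ep/ep with Mrps12+/+ livers. Of 20 clock genes 17 had a log2 difference above 0, with a median of 0.17. The median was 0.03 without Mrps12ep/ep mouse 3 and 0.42 without Mrps12ep/ep mouse 1. Of these genes 1 was higher without overlap, against 6.49% of all genes. This was Cry1, a repressor of the clock, at 304, 146 and 191 normalized counts in Mrps12+/+ against 356, 400 and 335 in Mrps12ep/ep livers. Of 21 major urinary proteins, pheromone carriers that near-identical genes encode, 19 lay above 0 (median 0.59), none without overlap, and the median was 0.04 without Mrps12+/+ mouse 1. The 18 tested male-biased and 13 tested female-biased genes had medians of 0.20 and 0.22, which turned to -0.13 without Mrps12+/+ mouse 3 and to -0.21 without Mrps12ep/ep mouse 2. Ugt1a5, a glucuronosyltransferase, was lower without overlap, at 4627, 6197 and 8437 against 2194, 3419 and 2839, while its list of 17 had a median of 0.17.

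The medians of the lists of apolipoproteins, antioxidant genes, cell cycle, YAP targets, sulfotransferases, proteasome, solute carriers and cytosolic ribosomal proteins were 0.14, 0.03, 0.04, -0.09, 0.10, 0.02, -0.03 and -0.01. Among cell type markers the medians were 0.33 for hepatocytes, 0.29 for Kupffer cells and macrophages, 0.29 for endothelial cells, -0.11 for cholangiocytes, 0.19 for lymphocytes and neutrophils and 0.11 for erythroid cells. Of these cell types the Kupffer, lymphocyte and erythroid medians turned sign without 1 mouse, to -0.00, -0.28 and -0.17 at the lowest. Skeletal muscle and adipocyte markers had medians of -5.34 and -1.85, and 2 of 11 pancreatic acinar markers were tested, with a median of -0.06. Of the 14 hepatocyte markers 6 were higher without overlap and none lower, against 6.49% and 6.28% of all genes. Of the 12 endothelial markers all lay above 0 and 3 were higher without overlap, against 6.49% of all genes. Mrps12+/+ mouse 3 was the lowest of its group in all 12, and without it the median was 0.06.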
